A study of Mus musculus with 2 samples.

Results

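Scavenger and efferocytosis genes were compared between macrophages grown from the bone marrow of mice of 2 genotypes, given in the labels as LysM (+);MC4RTB/TB and MC4RTB/TB. The group consists of 33 genes listed by symbol: scavenger receptors, receptors for apoptotic cells, the bridging proteins that link them to dying cells, and the engulfment machinery. Of these, 32 had a probe set named for them, of 19505 named genes in all, and Cd68 had none named for it here. Both genotypes carry the TB allele of MC4R, the melanocortin 4 receptor, in both copies, and the groups differ by LysM (+). As background, TB alleles of this gene generally hold a removable cassette that stops transcription until Cre recombinase cuts it out, and the LysM promoter, that of Lyz2, is widely used for Cre expression in macrophages and neutrophils. Neither point is spelled out in the labels. If both points hold here, the comparison sets macrophages that may have regained the receptor beside those expected to lack it. Marrow cells were cultured with 10% fetal bovine serum, received M-CSF, the growth factor that turns marrow cells into macrophages, at 25 ng/mL on day 0 and day 3, and were used from day 5, with no further treatment. No age, sex or number of animals is stated in the sources used here.

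With 1 array per genotype there is no replicate check on any difference and no test was run; precision is limited by the number of arrays. Values are log2 expression per probe set, and differences are LysM (+);MC4RTB/TB minus MC4RTB/TB, called LysM (+) and TB/TB from here on. To be counted as higher or lower, a gene needed a difference of at least 1.5-fold (0.58 on the log2 scale) and a brighter value of at least 6.12, the median over named probe sets, called the floor. The 23 background control probe sets reached up to 6.81. Folds take the deposited values as log2; their upper end, 19.51, is higher than is usual for this kind of value, so a further transformation of the scale is possible and the folds depend on this reading, while directions do not.

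Macrophages clear dying cells, a process called efferocytosis, without setting off inflammation. Phosphatidylserine exposed on the dying cell is bound directly by receptors or through soluble bridging proteins, and the signal passes to the ELMO and DOCK proteins, which activate Rac and reshape the actin cytoskeleton around the prey. Scavenger receptors bind modified lipoproteins, polyanions and microbial surfaces, and in the artery wall they load macrophages with lipid; CD47 on healthy cells, read by SIRPA on the macrophage, holds engulfment back.

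The cultures carried a macrophage profile on both arrays, and the targeted gene gave no check of the labels. Of the 13 measured macrophage markers, all 13 lay above every background control on both arrays, with a mean value of 16.20 in LysM (+) and 16.27 in TB/TB, and 0 of them were counted in either direction. Mc4r was at 4.45 and 4.57, under the floor on both arrays. Cell cycle markers were higher in LysM (+) (13 of 13 counted), and so were 6 of the 11 neutrophil markers that reached the floor. Over all named genes that reached the floor, 10.9% were counted as higher and 5.16% as lower.

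Most of the scavenger and efferocytosis genes were plainly present and differed little between the arrays. Of the 32 measured, 28 reached the floor and 26 lay above every background control on both arrays. Among the 28, 4 were counted as higher in LysM (+): Xkr8, a scramblase that exposes phosphatidylserine on dying cells, the scavenger receptor genes Colec12 and Scarf1, and Elmo2, an adaptor of the engulfment machinery. None was counted as lower (0 genes), and the other 24 lay less than 1.5-fold apart. Over all 10137 named genes that reached the floor, 10.9% were counted as higher and 5.16% as lower, or 16.1% in either direction; 4 of 28 is 14.3%, close to that background. The median difference over the 28 was 0.07, and over all genes that reached the floor it was also 0.07. The median size of the difference, without its sign, was 0.26 in both sets. By these measures, which do not match for brightness, the group as a whole differed between the arrays about as much as the typical gene. The group is the brighter set. Of the 28, 12 had a 2-array mean from 11 to below 14 and 8 from 14 upward, beside 2072 and 651 of the 10137. Over all genes with a mean of 11 or more, the median size of the difference was 0.21. At the lower fold tried (0.32 on the log2 scale), 6 of the 28 were higher and 6 lower, beside 25.5% and 15% of all genes. In RNA from a whole culture, fewer cells of a type and less RNA per cell cannot be told apart.

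**Figure D1:**
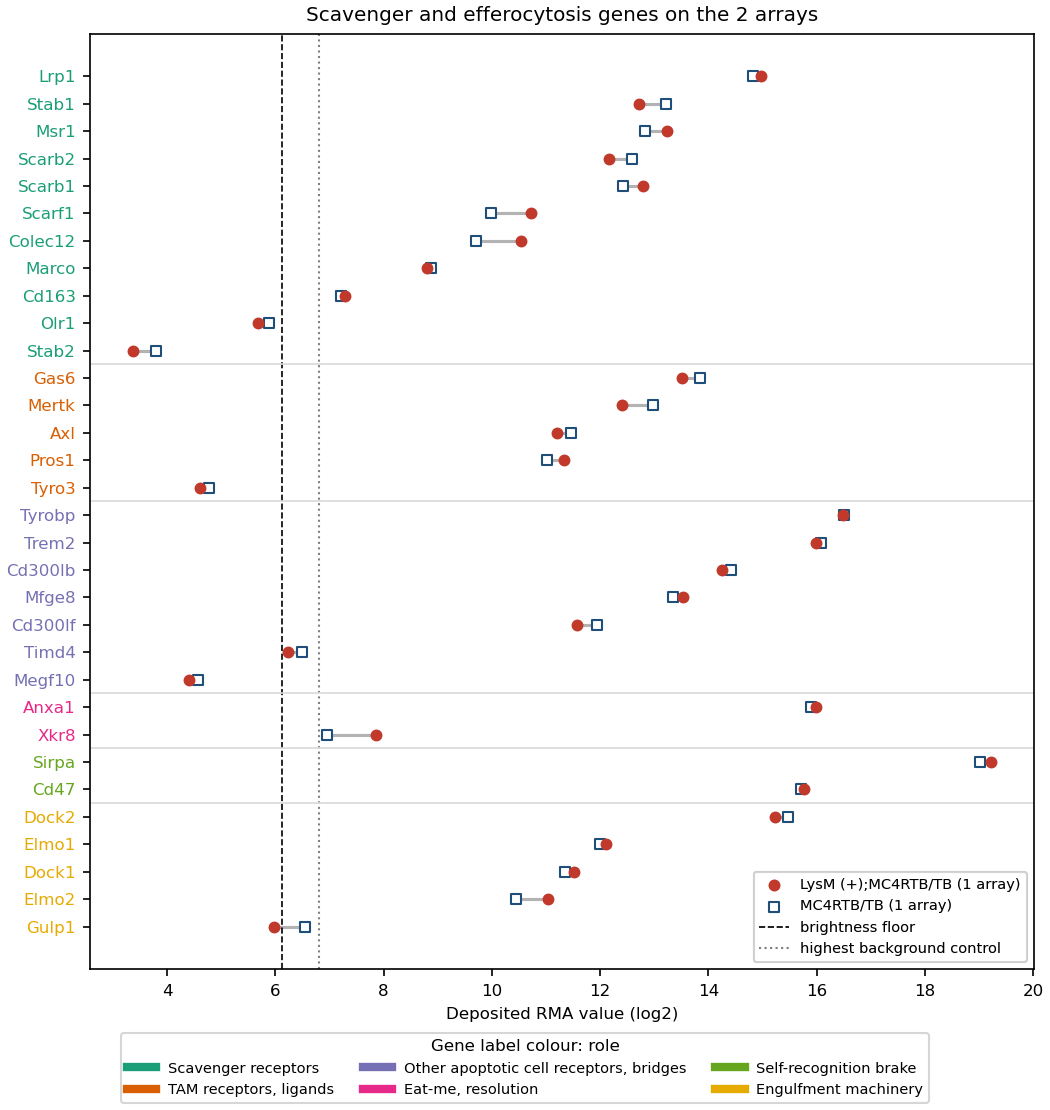
Deposited log2 values of the 32 measured genes on the LysM (+);MC4RTB/TB array (filled circles) and the MC4RTB/TB array (open squares), grouped by role; each point is 1 array, and the vertical lines mark the floor at 6.12 and the highest background control at 6.81. The paired points lie close together for most genes, and the widest gaps are those of Xkr8, Colec12, Scarf1 and Elmo2.

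The counted genes came from probe sets of low to middle brightness. All 20 of the genes with a 2-array mean of 11 or more, 12 of them below 14 and 8 from 14 upward, were uncounted, where 7.24% and 5.07% of all genes in these ranges were counted as higher and 2.65% and 1.84% as lower. The 4 counted genes came from the 8 with a mean below 11. With a mean from 8 to below 11, Colec12, Scarf1 and Elmo2 were counted and Marco was not, where 12.7% of all genes in that range were counted as higher and 3.63% as lower. With a mean from the floor to below 8, Xkr8 was counted and Cd163, Timd4 and Gulp1 were not, beside 11.2% of all genes higher and 6.98% lower. These lower ranges hold 4 genes of the group each, so their shares carry little weight.

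**Figure D2:**
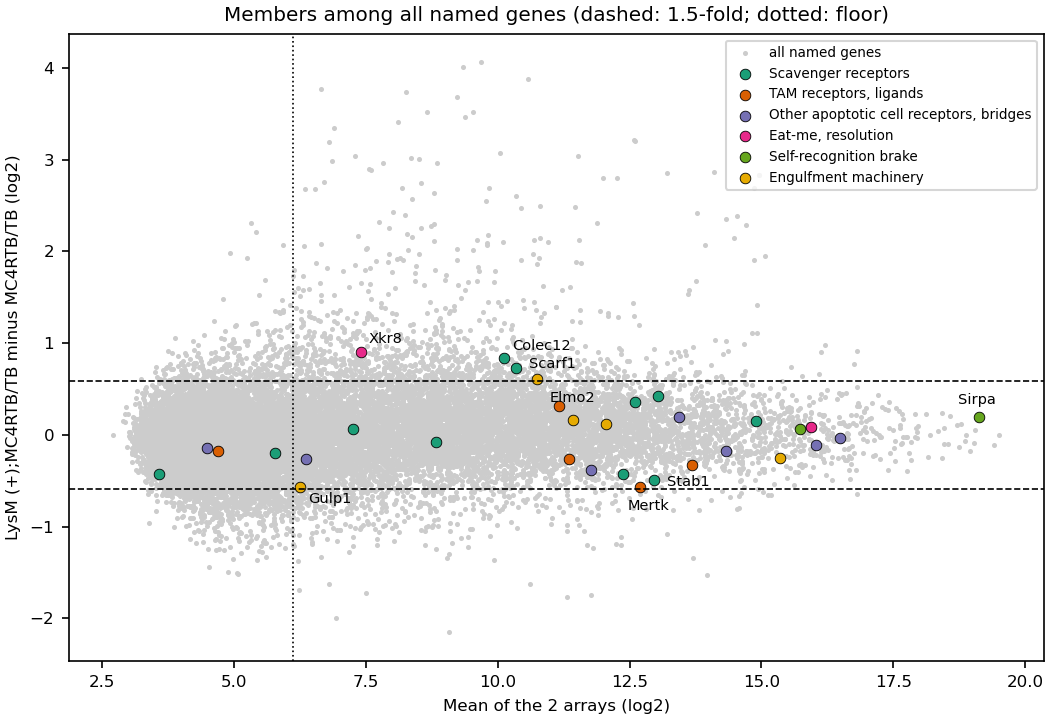
Difference between the arrays (log2) against the mean of the 2 arrays (log2) for all 19505 named genes (grey) and the 32 measured genes (coloured by role); dashed lines mark 1.5-fold and the dotted line the floor. The coloured points lie within the grey cloud, 4 of them above the upper dashed line and none below the lower one.

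Scavenger receptors went both ways. Of 11 measured, 9 reached the floor, 2 were counted as higher and 0 as lower, beside 10.9% and 5.16% of all genes, and the median difference over the 9 was 0.15, beside 0.07 over all genes that reached the floor. Colec12 encodes a membrane collectin, a scavenger receptor with a collagen-like stalk and a lectin domain. Its value was 10.54 in LysM (+) and 9.71 in TB/TB, a difference of 0.83 or 1.78-fold, at rank 527 from the highest of 10137. Scarf1, a receptor for modified lipoproteins and for apoptotic cells coated with complement, was at 10.72 and 9.99, 1.66-fold higher in LysM (+), at rank 711. Both receptors were well clear of the background controls on both arrays.

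A further 3 receptors for lipoproteins had higher values in LysM (+) but were not counted. Msr1, the class A scavenger receptor that takes up modified LDL, was at 13.24 and 12.82, a difference of 0.42 or 1.34-fold. Scarb1, which binds HDL and moves cholesterol between lipoprotein and cell, was at 12.79 and 12.43, or 1.28-fold apart. Lrp1, a large endocytic receptor for lipoprotein remnants, proteases and apoptotic cells, was at 14.98 and 14.83. Marco, a class A receptor for bacteria and particles, differed by -0.07 (8.80 and 8.87), and Cd163, the receptor for haemoglobin bound to haptoglobin, by 0.06 (7.28 and 7.22).

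In the other direction, Stab1, a receptor that macrophages use for clearing acetylated LDL and the matrix protein SPARC, was at 12.72 in LysM (+) and 13.21 in TB/TB, a difference of -0.49 or 1.40-fold. Scarb2, which despite its family is mainly a lysosomal membrane protein that carries glucocerebrosidase to the lysosome, was at 12.16 and 12.58, or 1.34-fold apart. The paired family members thus had opposite signs, 0.36 for Scarb1 and -0.42 for Scarb2. Stab2, the liver endothelial relative of Stab1, was at 3.37 and 3.80, and Olr1, the LOX-1 receptor for oxidised LDL, at 5.68 and 5.88. Both were under the floor on both arrays, so they have no measurable difference here. Endothelial markers, whose cells also carry stabilins and LOX-1, had 3 of 5 reaching the floor, among them Vwf at 7.27 and 8.18, counted as lower in LysM (+); Cdh5 and Emcn were under the floor on both arrays. Fibroblast and stromal markers, of cells that also carry Colec12, had 4 of 6 reaching the floor, with Col3a1 and Lum under it on both. Of the 4, Col1a2 was counted as lower (8.54 and 9.14), and Dcn had a lower value in LysM (+) but was not counted. Cxcl12 and Col1a1 had higher values in LysM (+) and were not counted, Cxcl12 with its TB/TB value inside the range of the background controls. The part of such cells in these values was not tested.

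The TAM receptors Tyro3, Axl and Mertk are tyrosine kinases that bind phosphatidylserine through the bridging proteins GAS6 and protein S, the latter encoded by Pros1. Mertk and its partners are shown with the bases upstream of their starts because they form a single receptor and ligand axis; none of them was counted. The 250 bases before the start of each gene were taken from RefSeq (GRCm38.p6) and are written 5′ to 3′ along the gene; capitals mark GC boxes, the letters GGGCGG on either strand.

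Mertk, chr2:128698665-128698914, plus strand: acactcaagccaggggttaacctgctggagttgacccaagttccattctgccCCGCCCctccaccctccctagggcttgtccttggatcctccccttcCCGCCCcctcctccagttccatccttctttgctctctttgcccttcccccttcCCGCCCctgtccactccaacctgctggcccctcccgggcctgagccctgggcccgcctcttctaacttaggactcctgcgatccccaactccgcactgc
Axl, chr7:25788734-25788983, minus strand: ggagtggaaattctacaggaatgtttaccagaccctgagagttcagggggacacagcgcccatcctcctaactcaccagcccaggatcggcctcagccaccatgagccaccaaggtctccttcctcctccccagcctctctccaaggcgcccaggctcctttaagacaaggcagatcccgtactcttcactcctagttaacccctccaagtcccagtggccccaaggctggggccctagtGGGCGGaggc
Gas6, chr8:13494536-13494785, minus strand: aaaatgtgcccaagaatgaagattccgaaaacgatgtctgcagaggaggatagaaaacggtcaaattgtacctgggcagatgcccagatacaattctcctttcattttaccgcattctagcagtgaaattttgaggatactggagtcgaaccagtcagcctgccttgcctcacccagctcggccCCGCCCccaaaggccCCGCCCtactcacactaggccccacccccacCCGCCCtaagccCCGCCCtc
Pros1, chr16:62854057-62854306, plus strand: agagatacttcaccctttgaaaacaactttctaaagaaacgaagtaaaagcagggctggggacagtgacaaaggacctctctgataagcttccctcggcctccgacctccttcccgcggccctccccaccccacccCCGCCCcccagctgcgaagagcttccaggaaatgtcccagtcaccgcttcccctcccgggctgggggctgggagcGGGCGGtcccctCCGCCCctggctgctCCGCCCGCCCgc

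GC boxes stood in all 4 of these windows, 3 for Mertk, 1 for Axl, 4 for Gas6 and 5 for Pros1, some of which overlap. Of all 32851 windows of that length in the RefSeq table, 32.7% held at least 1. None of the 4 held TATAAA, found in 12.4% of all windows, or the full cAMP response element TGACGTCA, found in 1.55%. The PU.1 core GAGGAA, a letter match for the myeloid factor's site that 23.3% of all windows held, stood in that of Axl alone of these 4. These are letter matches on both strands and not binding sites. Whether such matches bear on the differences between the arrays was not tested.

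Mertk, the main receptor by which resting macrophages engulf apoptotic cells, had the lowest difference of the whole group. Its value was 12.41 in LysM (+) and 12.98 in TB/TB, a difference of -0.57 or 1.49-fold, at rank 550 from the lowest of 10137. It was therefore just short of being counted with the values as deposited. With quantile normalization or with a loess trend removed, the difference was -0.65 and Mertk was counted as lower. Axl, the receptor that inflamed macrophages induce, was at 11.21 and 11.47, a difference of -0.26. Gas6, the ligand for all of the TAM receptors, was at 13.52 and 13.84, a difference of -0.32. Pros1, which serves Mertk and Tyro3 and also acts as an anticoagulant in plasma, was at 11.33 and 11.01, a difference of 0.31 or 1.24-fold. Both ligands were thus present on both arrays, Gas6 with the higher value in TB/TB and Pros1 with the higher value in LysM (+). Tyro3 was at 4.61 and 4.78, under the floor on both arrays. Of the 4 TAM genes that reached the floor, 3 had lower values in LysM (+), with a median difference of -0.29, and 0 were counted, beside the 5.16% of all genes counted as lower.

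**Figure D3:**
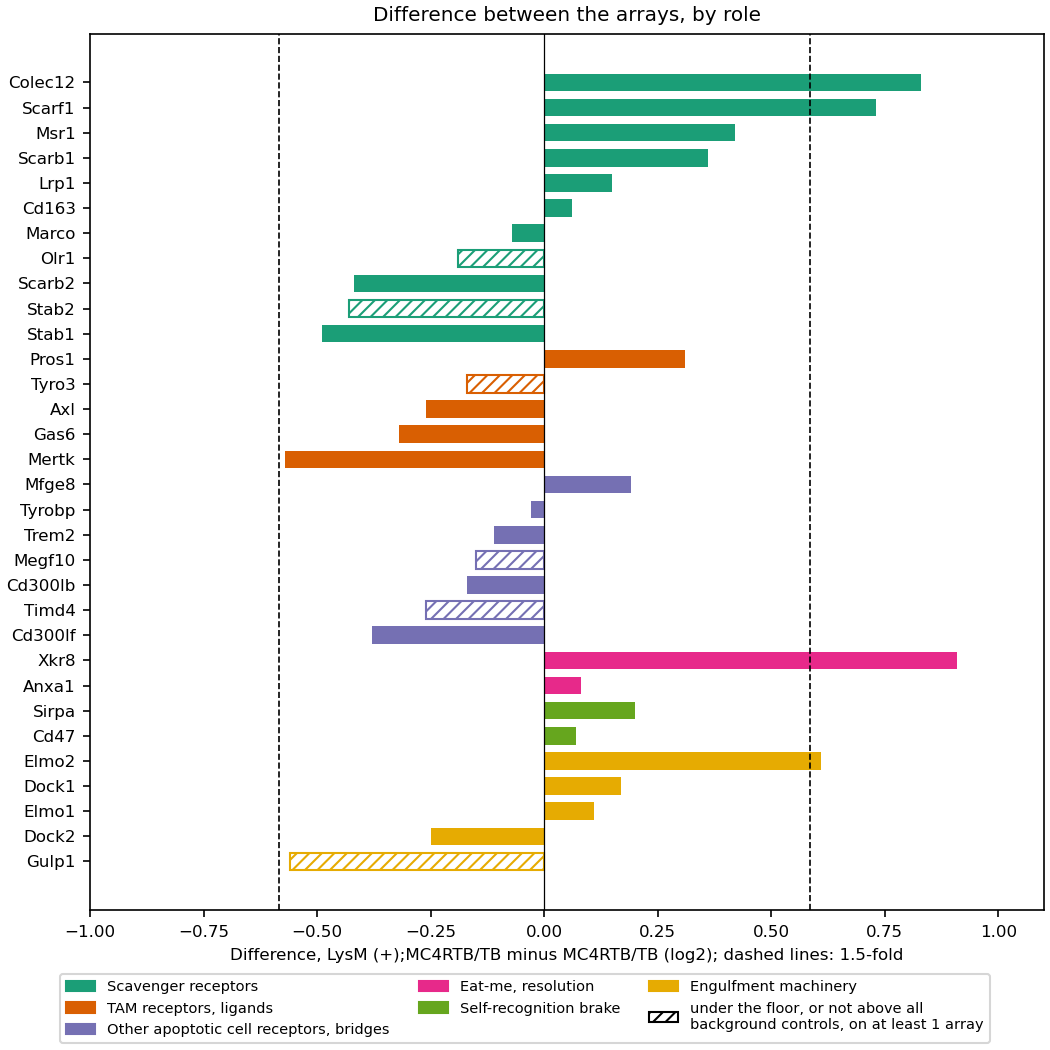
Difference between the arrays (log2, LysM (+);MC4RTB/TB minus MC4RTB/TB) for each of the 32 measured genes, coloured and grouped by role; hatched bars are genes under the floor, or not above all background controls, on at least 1 array, and dashed lines mark 1.5-fold. Xkr8, Colec12, Scarf1 and Elmo2 pass the upper line, Mertk and Gulp1 end just short of the lower one, and the hatched bars include Timd4 and Gulp1.

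Of the other apoptotic cell receptors and bridging proteins, 7 were measured and 6 reached the floor, of which 5 had lower values in LysM (+), Timd4 at background level among them. None was counted (0 genes), beside 5.16% of all genes counted as lower. Of all 10137 genes that reached the floor, 4347 had lower values in LysM (+). Cd300lf, a receptor that binds phosphatidylserine and carries inhibitory motifs, was at 11.57 and 11.95, a difference of -0.38 or 1.30-fold. Cd300lb, its activating relative, was at 14.25 and 14.42, a difference of -0.17. The CD300 genes are a family of similar sequences, so probes may share signal. Trem2, a lipid-sensing receptor of tissue macrophages, was at 15.98 and 16.08, and Tyrobp, which encodes the DAP12 adaptor through which Trem2 and Cd300lb signal, was at 16.48 and 16.51. The receptor and its adaptor were thus bright and at almost the same value on both arrays, with differences of -0.11 and -0.03.

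Mfge8, a secreted bridge between phosphatidylserine and macrophage integrins, was the sole gene of this set with a higher value in LysM (+), at 13.53 and 13.34. Its integrin partner gene Itgav, from the list of other receptors and signals below, was at 12.35 and 11.45, 1.87-fold higher in LysM (+). The beta chains that pair with it to bind MFGE8 were not counted: Itgb3 was at 8.42 and 8.49, and Itgb5 at 12.15 and 11.99. Timd4, the phosphatidylserine receptor of resident macrophages, was at 6.23 and 6.49, inside the range of the background controls on both arrays. Megf10, an engulfment receptor best known in astrocytes, was at 4.41 and 4.56, under the floor on both. These latter 2 genes cannot be told from background here.

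Xkr8 had the highest difference of the whole group. XKR8 sits in the plasma membrane and, once cut by caspases, scrambles its lipids so that phosphatidylserine appears on the outside, which makes the dying cell edible; it acts in the prey and not in the eater. The value was 7.86 in LysM (+) and 6.95 in TB/TB, a difference of 0.91 or 1.88-fold, at rank 419 from the highest of 10137. The TB/TB value was just above the highest background control, so the fold rests partly on a dim signal. Anxa1, a protein of dying and resting phagocytes that serves the resolution of inflammation, was at 15.98 and 15.90, a difference of 0.08.

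The brake on engulfment was bright and nearly equal on the arrays. Cd47, the signal that marks a cell as self, was at 15.77 in LysM (+) and 15.71 in TB/TB. Sirpa, its receptor on macrophages, was at 19.22 and 19.02, a difference of 0.20. Its probe set was near the top of the measured range, which ended at 19.51 on both arrays. Sirpa also has relatives of similar sequence whose transcripts the probes may pick up.

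Among the engulfment genes, the adaptor Elmo2 stood apart from its relative Elmo1. ELMO proteins bind DOCK proteins, and the pair activates Rac at the forming phagosome. Elmo2 was at 11.04 and 10.44, a difference of 0.61 or 1.52-fold, at rank 1031 from the highest of 10137 and the nearest to the threshold of the counted genes. With quantile normalization or a loess trend removed it was 0.51, and Elmo2 was no longer counted. Elmo1 was at 12.10 and 11.99, a difference of 0.11. The DOCK partners differed little: Dock1, the classical partner in efferocytosis, was at 11.52 and 11.35, and Dock2, the leukocyte form, at 15.23 and 15.48. Gulp1, an adaptor that links engulfment receptors such as LRP1 to the cell interior, was at 5.97 and 6.54, a difference of -0.56. Both Gulp1 values lie within the range of the background controls.

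RefSeq lists 3 starts for Elmo2, and the bases before the outermost are shown, since Elmo2 is a counted gene with a window in the table. Capitals mark GC boxes as before.

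Elmo2, chr2:165326480-165326729, minus strand: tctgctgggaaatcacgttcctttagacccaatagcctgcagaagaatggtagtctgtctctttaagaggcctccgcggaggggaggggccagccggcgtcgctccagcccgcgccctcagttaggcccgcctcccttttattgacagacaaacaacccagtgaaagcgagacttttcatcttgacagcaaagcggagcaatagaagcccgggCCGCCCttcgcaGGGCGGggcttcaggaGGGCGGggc

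This window held 3 GC boxes and none of the other motifs searched; the window of the next start held TATAAA, and the last held none. Starts on chromosome 18, which carries Colec12 and Megf10, were left out for the group but kept in the shares of all windows. Xkr8, Scarf1, Msr1, Scarb1, Sirpa and Tyrobp had no window in the RefSeq table used. Of the 33 genes, 25 then had at least 1 start, 29 starts in all. Elmo2 is thus the sole gene counted as higher that enters these motif counts. GC boxes stood in 15 of the 29 windows, beside 32.7% of all windows, and the PU.1 core in 11, beside 23.3%. The windows of the Cd47 starts overlap and hold the same GC boxes. The PU.1 core stood in those of Anxa1, Axl, Cd300lf, Cd68, Dock1, Dock2, Marco, Mfge8, Olr1, Stab1 and Trem2. The AP-1 site TGANTCA, in 6.75% of all windows, stood in 3 of the 29 (Cd68, Olr1 and Trem2), and the full cAMP response element in 0.

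Genes that work beside these were described from 5 further lists. Over all 10137 genes that reached the floor, 10.9% were counted as higher and 5.16% as lower. Of 23 measured other scavenger and lipoprotein receptors, 12 reached the floor and 0 were counted, with a median difference of -0.05 over the 12. Of 31 other signals and phosphatidylserine receptors, 23 reached the floor, 3 were counted as higher and 0 as lower, and the median over the 23 was 0.12. The counted genes were Itgav, the integrin chain given above, Cx3cr1, the fractalkine receptor that guides phagocytes to dying cells (9.15 and 7.25, 3.74-fold), and S1pr1, a receptor for a lipid that dying cells release (9.59 and 8.73, 1.81-fold).

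Further engulfment and phagosome genes numbered 42 measured, of which 39 reached the floor. Of the 39, 0 were counted as higher and 2 (5.13%) as lower, beside 10.9% and 5.16% of all genes. The lower genes were Trio and Dock3. Trio, an exchange factor upstream of Rac, was at 6.72 and 7.58. Dock3, a relative of Dock1 best known in neurons, was at 5.75 and 6.66. Both had their LysM (+) value inside the range of the background controls, and Dock3 had its TB/TB value there as well. Of 10 other self-recognition genes that reached the floor, 1 was counted, Cd24a, a glycoprotein that can act as a brake signal, with a difference of 0.96, 1.95-fold higher in LysM (+). Of 14 other genes of the TREM, CD300 and DAP12 group that reached the floor, 1 was counted as higher and 1 as lower. These were Treml2 (7.94 and 7.14) and Trem1 (5.77 and 6.56), in that order. Trem1 was under the floor in LysM (+) and inside the range of the background controls on both arrays.

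**Figure D4:**
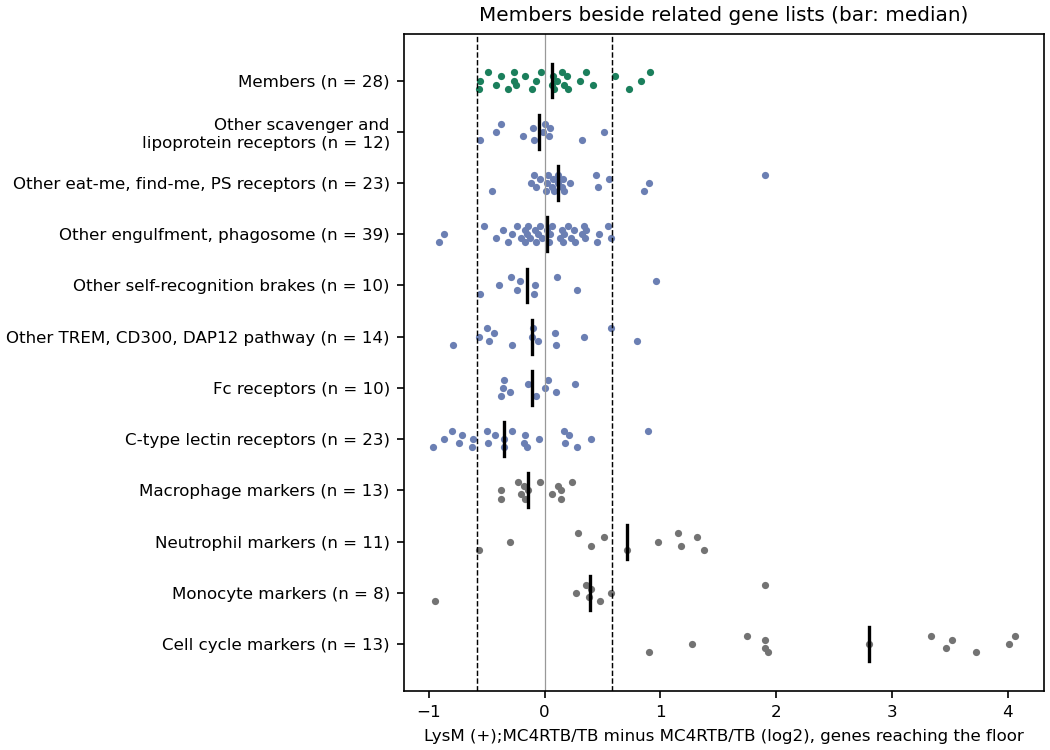
Difference between the arrays (log2) for each gene that reached the floor, in the scavenger and efferocytosis group (green), related lists (blue) and cell markers (grey); each point is a gene, the bar is the list's median, and dashed lines mark 1.5-fold. The 28 green points centre near 0, while the cell cycle markers all lie to the right of the upper line.

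Other uptake receptors of macrophages gave the following counts, with no test of the difference between lists. Of 10 Fc receptor genes that reached the floor, 0 were counted in either direction, beside 16.1% of all genes. Of 23 C-type lectin receptor genes that reached it, 1 was counted as higher and 7 as lower, beside 10.9% and 5.16% of all genes. Their median difference was -0.35, beside 0.07 for the scavenger and efferocytosis genes. The higher gene, Ly75 (6.43 and 5.54), and the lower gene Mgl2 (5.60 and 6.47) lay inside the range of the background controls on both arrays. Clec4a4 and Clec4b2, also counted as lower, did so in LysM (+). The other lower genes lay above every background control on both arrays.

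Markers of other cells and of division differed between the same arrays and stand beside each count above. The 13 measured cell cycle markers had a mean value of 10.77 in LysM (+) and 8.11 in TB/TB. The 13 measured neutrophil markers had a mean of 9.60 and 9.06. Of the 11 that reached the floor, 6 were counted as higher, beside 10.9% of all genes. Of these 6, Ltf and Mmp8 lay above every background control on both arrays, whereas Elane, Retnlg, Cxcr2 and Mmp9 did not on at least 1. Of the 11, 9 had higher values in LysM (+), and the median difference was 0.71. Ngp (16.32 and 15.92), S100a8 (13.21 and 12.92) and S100a9 (13.35 and 12.85), bright on both arrays, were higher but not counted. The other 2, Csf3r (12.65 and 13.22) and Mpo (9.99 and 10.29), had lower values in LysM (+). Prtn3 and Camp were under the floor on both arrays. The 8 measured monocyte markers had a mean of 10.05 and 9.62. Of these, 7 had higher values in LysM (+), with a median difference of 0.39 over the 8. Cx3cr1 was counted as higher. Itgal (9.78 and 10.73), the sole marker of the list with a lower value, was counted as lower. The part of dividing cells, neutrophils or monocytes in the values of Xkr8, Colec12, Scarf1, Elmo2 and Mertk was not tested.

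**Figure D5:**
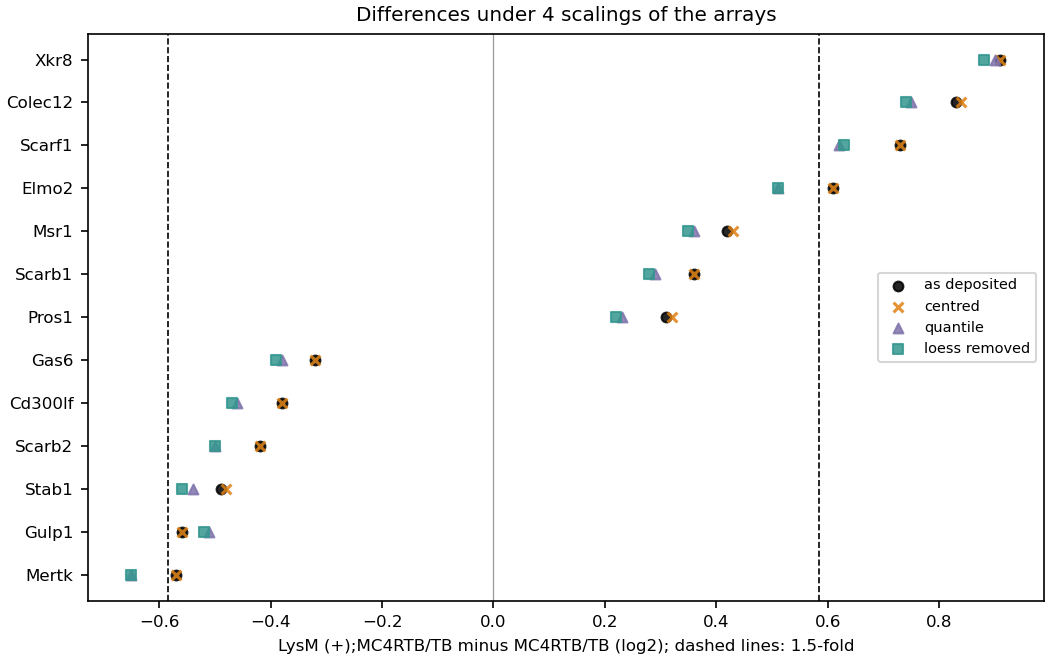
Difference between the arrays (log2) for 13 genes of the group with the values as deposited, centred on the median difference, quantile normalized, and with a loess trend on brightness removed; dashed lines mark 1.5-fold. Xkr8, Colec12 and Scarf1 stay beyond the upper line under all 4 scalings, Elmo2 falls inside it under quantile and loess, and Mertk passes the lower line under the same pair.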

How the data were processed

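RNA from 2 macrophage cultures was measured on whole-transcript GeneChip arrays, 1 per genotype, as the genotype labels give it. The values deposited by the authors, per probe set, were taken as log2. The submitters' processing notes name RMA and Affymetrix Expression Console, without versions. The log base was inferred from the method's name, and a further transformation of the scale is possible. After sorting, the columns lay within 0.16 of each other. A single gene symbol was paired with 19572 of the 28846 probe sets, all matched by Entrez ID to the RefSeq table of GRCm38.p6; probe sets of a gene were averaged, and each gene of the group had 1. Genes were counted at 1.5-fold with a floor of 6.12. All genes of the group are named; of other lists, up to 4 counted genes in each direction, and further names were chosen after their values were seen. The genes, lists and motifs were chosen with earlier results of these data known. Counting and scaling were tested on simulated data with planted shifts of 2-fold or more, which do not bear on differences near 1.5-fold. Python 3.11.15, pandas 2.3.3 and statsmodels 0.14.6 (lowess, span 0.4) were used.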

Additional observations from a re-analysis of the deposited data

How the results depend on the processing

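Of the counts, 4 higher and 0 lower with the values as deposited, quantile normalization and removal of a loess trend each gave 3 higher and 1 lower (beside 9.73% and 5.53% of all genes for the former, 9.28% and 5.81% for the latter), Elmo2 leaving (0.51) and Mertk entering (-0.65). Requiring 2-fold left 0 higher, beside 3.25% of all genes; at the lower fold (0.32 on the log2 scale) 6 were higher and 6 lower, beside 25.5% and 15% of all genes. The median difference over the 32 measured genes was -0.05, and 0.07 over those reaching the floor, a setting that uses fewer genes. Centring, no floor, a floor at the highest background control and a floor on both arrays gave 4 and 0 as before. Across these settings, 6.98% to 11.4% of all genes were counted as higher and 3.85% to 5.51% as lower. The brightest probe set could not change the counts, because each gene of the group had 1 probe set. No measured gene of the group changed sign under the 3 scalings (0 of 32), and the largest move was 0.11. No paired analysis was possible because each group has 1 array. With 1 array per group nothing could be left out, and signal over background limits the 6 genes that did not lie above every background control on both arrays.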

Other observations

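Some further uptake genes, chosen after their values were seen, are given as values. Cd36, the class B receptor for oxidised LDL and long-chain fatty acids, was at 15.42 in LysM (+) and 14.91 in TB/TB, 1.43-fold higher in LysM (+) and so not counted, beside 1.34-fold for Msr1. Cd5l, a soluble scavenger protein made by macrophages, was at 10.28 and 10.84, a difference of -0.56. Lgals3, a lectin that also binds modified lipoproteins, was at 16.61 and 16.98. The measured relatives of Dock1 and Dock2 that were bright on both arrays, Dock4, Dock5, Dock8, Dock10 and Dock11, had differences between -0.02 and 0.25.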
